A study of Mus musculus with 8 samples.

Results

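Subunits of the receptors for GABA, glycine and glutamate were examined in the hypothalamus and liver of fibromodulin (Fmod) knockout mice. The members were all probes of the deposited array table whose platform gene symbol names a GABA-A, GABA rho or GABA-B receptor subunit, a glycine receptor subunit, or a subunit of the AMPA, kainate, NMDA or metabotropic glutamate receptors. They numbered 53 of 25697 probes and stood for 40 of 16593 gene symbols. The choice used gene names and no measured value. Some subunit genes of these families were not analysed here.

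The 8 samples were total RNA from male mice of 13 weeks on a C57BL/6 background, 4 from hypothalamus and 4 from liver, each on its own Illumina bead array. Both tissues came from Fmod knockout mice, and wild-type mice were not analysed here, so hypothalamus against liver was the only contrast. The design text counts 4 knockout mice, and the labels give no promoter, Cre driver or cell type for the knockout. Whether arrays with equal numbers come from 1 mouse is not said, and the p-values below measure only how these arrays spread.

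GABA-A receptors are pentameric chloride channels built mainly from alpha and beta subunits with a gamma, delta, epsilon or theta subunit, and GABA-B receptors are G protein-coupled dimers of Gabbr1 and Gabbr2. Glycine receptors are chloride channels in which the beta subunit (Glrb) ties the receptor to the scaffold protein gephyrin. AMPA, kainate and NMDA receptors are tetrameric cation channels opened by glutamate, and the metabotropic receptors (Grm genes) signal through G proteins. In the hypothalamus, GABA and glutamate carry most of the fast signalling between neurons that release neuropeptides.

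Values are normalized log2 intensities, and a probe counts as detected on an array where its detection p-value is under 0.05. The arrays detected 13285 to 13753 probes in hypothalamus and 10307 to 10828 in liver, and 22 to 24 member probes in hypothalamus against 1 to 4 in liver. The lowest signal of a detected probe lay between 4.86 and 4.92 on the hypothalamus arrays and between 5.50 and 5.69 on the liver arrays. Of 11 hypothalamic marker genes with a probe, 9 were read on every hypothalamus array and 0 on every liver array. Of 9 hepatocyte markers, 8 were detected on all 4 liver arrays, and 6 on no hypothalamus array. The Fmod probes ILMN_2999762 and ILMN_1230020 were detected on 1 and 0 of the 8 arrays. In bulk tissue, fewer cells of a type and less RNA per cell cannot be told apart.

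In hypothalamus 17 of 40 genes were detected on all 4 arrays, against 51.2% of all genes, and 18 of 40 (45.0%) on at least 2 of the 4 arrays, against 57.6% of all genes. In liver 2 of 40 (5.0%) were detected on at least 2 arrays, against 46.3% of all genes. Detection on all 4 hypothalamus arrays and no liver array, taken over all probes of a gene, was found for 13 of 40 genes (32.5%), against 9.08% of all genes. The lowest detected signal was lower in hypothalamus, so equal levels can count as detected there and not in liver. Gabrb2, for example, was detected at 5.02 in hypothalamus and not at 5.44 in liver. A further 17 genes had no detected probe on any array.

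By class, AMPA and kainate subunits were read on all 4 hypothalamus arrays for 3 of 4 genes each. Both beta genes of the GABA-A receptor, Gabrb1 and Gabrb2, were read on all 4 arrays, as was Gabbr1, the 1 GABA-B gene with a probe, and of 5 alpha genes Gabra3 was. No GABA rho gene of 3 was detected on any array, and no NMDA gene of 5 was detected on more than 1 hypothalamus array. A missing signal on a probe does not show that the transcript is absent. Snap25 and Nefl, genes with high levels in neurons, were also detected on 0 of 8 arrays by their brightest probe. Of 12 neuron markers 9 were read on all 4 hypothalamus arrays. Why subunit probes gave no signal was not tested.

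**Figure D1:**
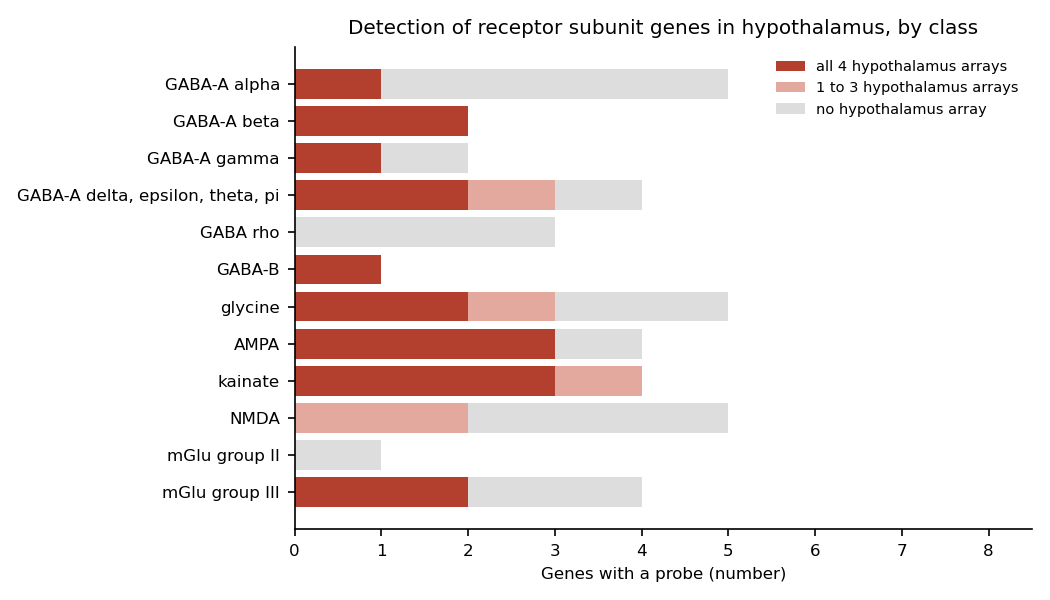
Number of receptor subunit genes (horizontal axis) in each receptor class, split by whether any probe of the gene was detected (detection p-value under 0.05) on all 4, on 1 to 3 or on none of the hypothalamus arrays. NMDA and GABA rho are the classes with several genes and none detected on all 4 arrays.

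Genes were tested where a probe was detected on at least 4 of the 8 arrays, and 17 of the 40 were. Of these, 16 were read on 4 of 4 hypothalamus arrays but on fewer than 4 in liver, so they entered the test through the hypothalamus, and a count over them describes and does not support a difference. With limma, 14 of the 17 were higher in hypothalamus (adjusted p under 0.05), 0 were higher in liver and 3 were not called. Across all 9456 tested genes, 43.1% were called on the hypothalamus side and 37.3% on the liver side. Counted as probes, 18 of 21 tested members were called, against 41.8% of all tested probes. At an unadjusted p under 0.05 the count of members was also 14, and all 17 differences were above 0. Beyond 2-fold (limma's treat) 12 members were called, against 23.6% of all tested genes. In 13 of the 17 the lowest hypothalamus value exceeded the highest liver value, against 41.1% of all tested genes.

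With no filter, all 40 genes could be tested, and 16 were called for hypothalamus (25.0% of all genes), now with Glra1 and Gria4. In liver 3 were called, Gabrp, Grik2 and Grm4 (23.2% of all genes). The deposited intensities of all 3 overlapped between the tissues. Those of Gabrp were 129 to 158 in hypothalamus and 134 to 159 in liver, and those of Grm4 128 to 162 and 142 to 166. The Gabrp probe behind the call, ILMN_1251237, was detected on no array. The median log2 difference over the 40 genes was 0.14, and −0.05 over all genes. The size of the differences depended on the background step: without it the median of the 17 tested genes was 0.85 in place of 2.09. Where a probe was not detected on every liver array, the fold is given below as "at least". On each liver array its dim value was raised to the lowest detected signal, so such a bound carries no error of its own.

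**Figure D2:**
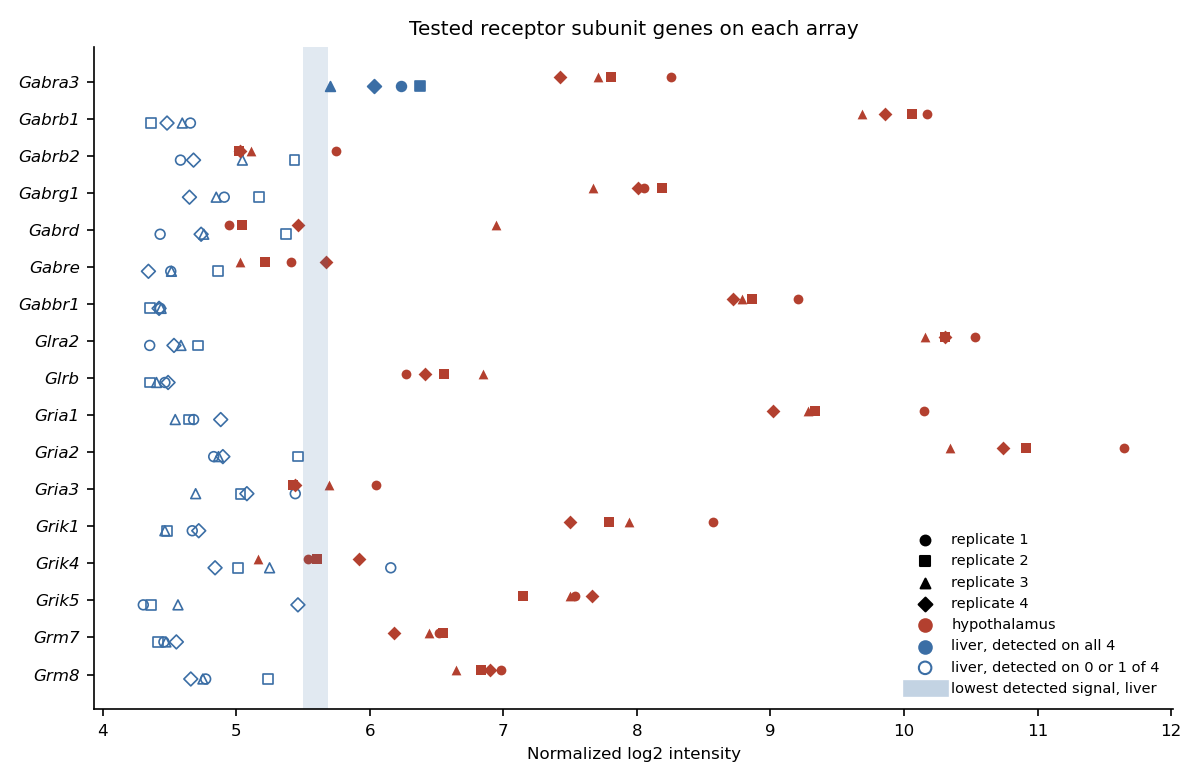
Normalized log2 intensity (horizontal axis) of the 17 tested receptor subunit genes on each of the 4 hypothalamus (red) and 4 liver (blue) arrays, with marker shapes for replicates and the shaded band for the range of the lowest detected signal on the liver arrays. Filled liver symbols mark Gabra3, detected on all 4 liver arrays and right of the band, and open ones the genes detected on 0 or 1, which lie left of the band except for Grik4 on liver replicate 1 at 6.16.

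**Figure D3:**
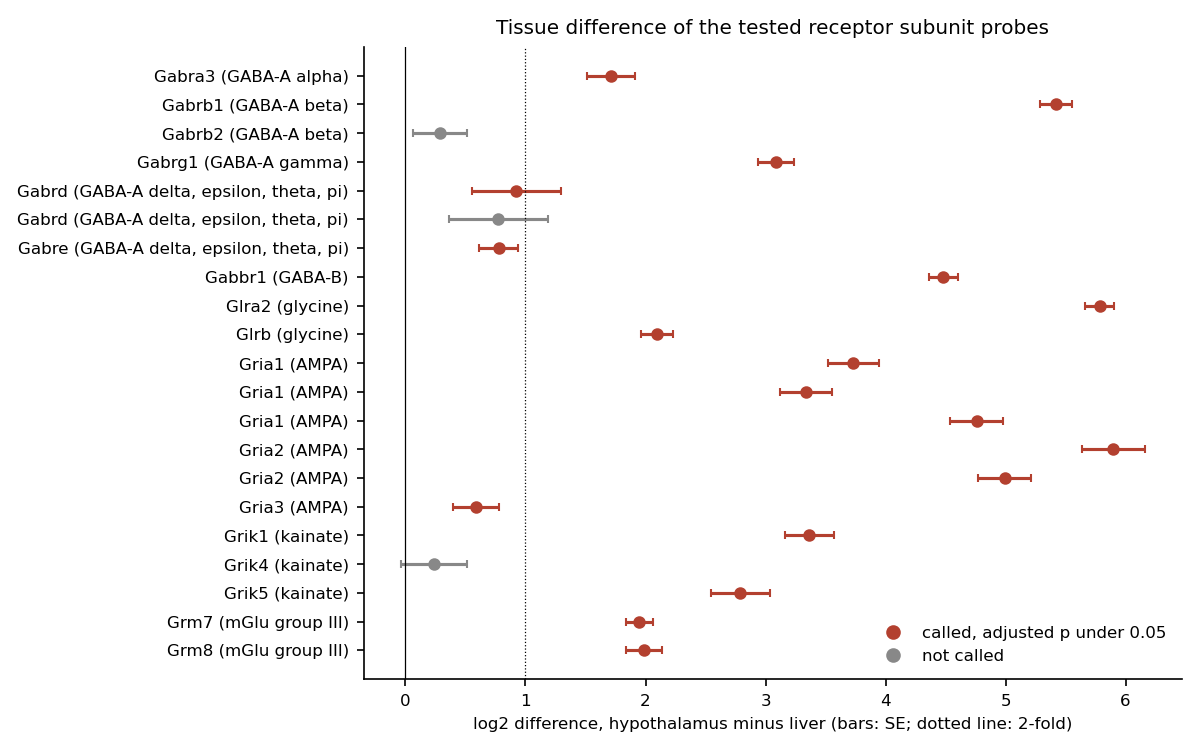
Log2 difference, hypothalamus minus liver (horizontal axis, bars give the SE), of the 21 tested receptor subunit probes; red points were called by limma and grey ones were not. Gria2, Glra2 and Gabrb1 reach over 5, while Gabrb2, Grik4 and a Gabrd probe were not called.

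Promoter sequence is shown for the genes with the 3 largest differences (Gria2, Glra2 and Gabrb1), for Gabra4, which begins next to Gabrb1 on the other strand, and for Gabra3, the subunit read on all arrays of both tissues. RefSeq tables held 39 promoters for 32 of the 40 genes, and the 250 bases before a start are printed 5′ to 3′ in the gene's direction. Capitals mark any of 3 common promoter motifs found on either strand. They are the GC box, written GGGCGG, the core promoter element with the letters TATAAA, and the upstream element whose letters are CCAAT. The windows of Gria2 and Gabrb1 hold none of them.
Gria2: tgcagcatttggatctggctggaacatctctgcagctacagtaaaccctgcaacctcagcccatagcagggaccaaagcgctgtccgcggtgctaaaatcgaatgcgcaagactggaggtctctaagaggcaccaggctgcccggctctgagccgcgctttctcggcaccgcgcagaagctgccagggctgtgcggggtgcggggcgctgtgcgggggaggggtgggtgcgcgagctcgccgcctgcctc
Glra2: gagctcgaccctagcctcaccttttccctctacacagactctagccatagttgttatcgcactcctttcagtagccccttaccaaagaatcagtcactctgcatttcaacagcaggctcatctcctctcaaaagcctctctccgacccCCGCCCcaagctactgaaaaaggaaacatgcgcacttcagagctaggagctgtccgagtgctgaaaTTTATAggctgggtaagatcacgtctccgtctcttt
Gabrb1: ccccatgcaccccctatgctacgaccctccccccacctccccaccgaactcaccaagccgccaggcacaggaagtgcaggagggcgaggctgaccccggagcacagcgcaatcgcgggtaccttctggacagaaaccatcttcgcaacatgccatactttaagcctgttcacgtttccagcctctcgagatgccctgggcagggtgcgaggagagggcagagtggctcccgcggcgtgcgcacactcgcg
Gabra4: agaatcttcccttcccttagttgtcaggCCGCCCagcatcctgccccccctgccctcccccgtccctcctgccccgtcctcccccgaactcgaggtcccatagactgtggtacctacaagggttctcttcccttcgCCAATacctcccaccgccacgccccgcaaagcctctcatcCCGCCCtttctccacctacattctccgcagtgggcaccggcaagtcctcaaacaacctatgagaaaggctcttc
Gabra3: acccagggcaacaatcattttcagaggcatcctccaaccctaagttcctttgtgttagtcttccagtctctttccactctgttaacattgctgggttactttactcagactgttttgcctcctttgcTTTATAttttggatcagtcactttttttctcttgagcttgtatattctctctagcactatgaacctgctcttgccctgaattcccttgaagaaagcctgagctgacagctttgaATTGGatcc
In build GRCm38.p6 these lie at chr3:80802836-80803085 (minus strand), chrX:165327394-165327643 (minus), chr5:71657671-71657920 (plus), chr5:71658309-71658558 (minus) and chrX:72656920-72657169 (minus). For Gabrb1 and Gabra3, which have more than 1 listed start, the first is shown.

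The GC box was found in 18 of the 39 member promoters (46.2%), against 32.7% of 32851 promoters of the same length. TATAAA was found in 5 (12.8%, against 12.4%) and CCAAT in 17 (43.6%, against 33.8%). The core motif of the factor NRF-1 was in 1 member promoter, the other listed Gabrb1 start (2.56%, against 0.782%). The cyclic AMP response element TGACGTCA was in 0 of 39 (1.55% of all). TTCAGCACC, a piece of the RE1 element that the repressor REST binds, was in 0 of 39 as well (0.301% of all). A piece from the other end of RE1 was also in 0 of 39 (0.0974% of all). Only exact matches were counted, so these counts do not show that RE1 elements are absent. The Gria2 window printed above, for example, holds a near match to TTCAGCACC on the opposite strand. Binding of REST was not tested. Motifs were searched on both strands. Each listed start of a gene was counted, and the overlapping windows of Gabra3 and of Grm7 share sites that were counted in both windows. CpG pairs differed widely among these windows: 0 in the Gabra3 window shown, 8 in that of Glra2, 12 in Gabra4, 18 in Gabrb1 and 19 in Gria2. The median was 8 in the 16 promoters of genes higher in hypothalamus and 8 in the other 23, and 6 over all promoters.

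GABA-A receptor genes were led by Gabrb1, a beta subunit that forms part of the GABA binding site. On hypothalamus replicates 1 to 4 its levels were 10.17, 10.06, 9.69 and 9.86. On liver replicates 1 to 4, where it went undetected, they were 4.66, 4.36, 4.60 and 4.48. The groups lay far apart, with a log2 difference of 5.42 (SE 0.13, limma adjusted p = 1.24e-10), at least 20.5-fold. Gabrg1, a gamma subunit, read 8.06, 8.19, 7.67 and 8.01 in hypothalamus, against 4.65 to 5.17 in liver, again without overlap. The difference was at least 5.26-fold (3.09 on the log2 scale, SE 0.15, adjusted p = 2.28e-08).

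Gabra3, an alpha subunit of benzodiazepine-sensitive receptors, was the exception in liver. It was detected on all 4 liver arrays, at 6.23, 6.38, 5.70 and 6.03, and read 8.26, 7.80, 7.71 and 7.43 in hypothalamus. No hypothalamus array fell into the liver range, and the difference was 3.28-fold (log2 difference 1.71, SE 0.20, adjusted p = 2.15e-05). Its deposited intensities in liver were 157, 175, 168 and 171, beside liver array medians of 138 to 157, and its detection p-values there reached from 0.00752 to 0.0313.

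Gabrb2, the other beta gene, gave no call. Its brighter probe read 5.74, 5.02, 5.11 and 5.02 in hypothalamus, against 4.58 to 5.44 in liver, so the groups overlapped (log2 difference 0.29, SE 0.23, adjusted p = 0.26). Its other probe was detected on no array. The single probes of Gabra2, Gabra4, Gabra5, Gabra6, Gabrg3 and Gabrq were also detected on 0 of 8 arrays. Gabra6 is the alpha subunit of cerebellar granule cells. Of 6 cerebellar markers 4 were detected on no hypothalamus array, while 1 was detected on all 4 and called higher in hypothalamus (log2 difference 3.61). Why the Gabra6 probe gave no signal was not tested.

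Gabre, the epsilon subunit, which is known for its presence in hypothalamus and brainstem nuclei, read 5.41, 5.22, 5.03 and 5.67 in hypothalamus and 4.51, 4.86, 4.51 and 4.34 in liver. The groups did not overlap, and the difference was called (0.78 on the log2 scale, SE 0.16, adjusted p = 0.00152) but not beyond 2-fold (treat adjusted p = 1). Its hypothalamus mean of 5.33 lay below the mean liver detection floor of 5.58, so no fold is given. The pi subunit gene Gabrp, with 2 probes, was detected on 1 hypothalamus array by one of them and was not tested.

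Gabrd, the delta subunit of extrasynaptic receptors that carry tonic inhibition, read highest on hypothalamus replicate 3, which raised the size of its difference. Its brighter probe, ILMN_2865082, read 4.94, 5.04, 6.94 and 5.47 on hypothalamus replicates 1 to 4, against 4.43 to 5.37 in liver. Its other probe, ILMN_2698299, read 4.95, 4.93, 6.81 and 5.24 against 4.46 to 4.74. On both, replicate 3 stood above the other three arrays by more than those arrays differed from each other. The first was not called (log2 difference 0.77, SE 0.41, adjusted p = 0.108), and the second was (0.92, SE 0.37, adjusted p = 0.0429).

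Without hypothalamus replicate 3 the difference of ILMN_2698299 was 0.48 (adjusted p = 0.00898) and that of ILMN_2865082 was 0.33 (adjusted p = 0.227). The call of ILMN_2698299 was lost without hypothalamus replicate 4 (adjusted p = 0.0567), without liver replicate 1, 2, 3 or 4 (0.0561 to 0.0784), under median scaling (0.0637), under cyclic loess (0.199), with an offset of 50 (0.065) and with no filter (0.0812). Markers of some lists were also highest on hypothalamus replicate 3, which was the highest array for 22.8% of all probes called higher in hypothalamus. In other lists they were not: 2 of 11 hypothalamus markers were highest there, and the summed astrocyte level of 45095 was the lowest of the 4 arrays. Of 6 thalamus markers 5 were highest on hypothalamus replicate 3, all but Calb2 and counting the undetected Lef1, and the summed level of the list was 16735 there against 13087 to 14715 on the other hypothalamus arrays and 1217 to 1497 in liver. The protein kinase gene Prkcd read 7.06, 7.37, 9.84 and 6.85 (7.64 to 8.04 in liver). Oligodendrocyte and precursor markers were highest on replicate 3 in 5 of 8, with a summed level of 61117 there against 51166 to 52610 on the other hypothalamus arrays. Striatum markers were highest there in 2 of 3, with a sum of 2641 against 1739 to 2486. Transthyretin (Ttr), made in choroid plexus and liver, read 5.42, 7.88, 14.32 and 7.79. It was taken from the hepatocyte list, and of those 9 markers only 1, Ttr, was highest on replicate 3. On replicate 4, the next highest array for both Gabrd probes, the thalamus and oligodendrocyte sums were lowest. The part of these cells and tissues in the Gabrd value was not tested.

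**Figure D4:**
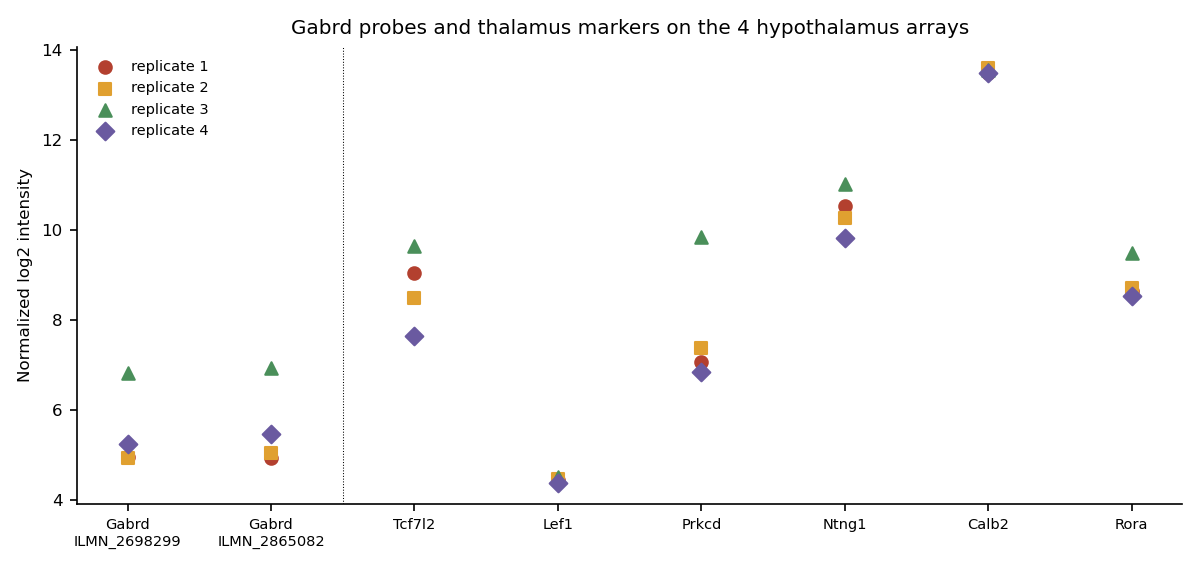
Normalized log2 intensity (vertical axis) of both Gabrd probes and of 6 thalamus marker genes on the 4 hypothalamus arrays, with colours and shapes for replicates. Replicate 3 is the highest array for both Gabrd probes and for 5 of the 6 markers, with Prkcd at 9.84 against 6.85 to 7.37.

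GABA-B receptors were represented by Gabbr1, the subunit that binds GABA. Its probe ILMN_2680745 read 9.20, 8.86, 8.78 and 8.72 in hypothalamus and stayed between 4.35 and 4.44 on every liver array, undetected. The levels did not overlap, with at least a 9.90-fold difference (log2 difference 4.48, SE 0.12, adjusted p = 3.02e-10). Its other probe, ILMN_1220286, was detected on no array.

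Among glycine receptor genes, Glra2, the alpha subunit best known from developing neurons, had a difference nearly as large as any member. It read 10.53, 10.31, 10.16 and 10.31 in hypothalamus, against 4.35 to 4.71 in liver, where no array detected it. This was at least 26.8-fold (log2 difference 5.78, SE 0.12, adjusted p = 4.36e-11), and the 4 hypothalamus arrays lay close together (SD 0.15). Glrb, the gephyrin-binding beta subunit, read 6.27, 6.55, 6.85 and 6.42 against 4.36 to 4.49, at least 1.91-fold higher (log2 difference 2.09, SE 0.13, adjusted p = 1.84e-07). A second Glrb probe, ILMN_2685831, was detected on 1 hypothalamus array and no liver array, and was not tested. Glra1, the alpha subunit of adult spinal cord and brainstem, was detected on 2 of 4 hypothalamus arrays, with levels of 4.97, 4.72, 4.67 and 4.97, and on no liver array, and was not tested. Glra3 and Glra4 were detected on 0 of 8 arrays.

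AMPA receptor genes showed the largest difference of the family in Gria2, the subunit whose RNA editing makes the channel nearly impermeable to calcium. Its brighter probe read 11.65, 10.91, 10.35 and 10.74 in hypothalamus and 4.83, 5.46, 4.87 and 4.90 in liver, where it was not detected. Replicate 1 was the highest and replicate 3 the lowest in hypothalamus, yet both were far above liver: at least 40.1-fold (log2 difference 5.90, SE 0.26, adjusted p = 1.19e-08). The other Gria2 probe differed by 4.99 (SE 0.22, adjusted p = 1.24e-08).

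Gria1, a subunit linked to activity-dependent receptor insertion, was read by 3 probes, and each was called. The brightest gave 10.15, 9.34, 9.28 and 9.02 in hypothalamus and 4.54 to 4.88 in liver, at least 14.6-fold (log2 difference 4.76, SE 0.22, adjusted p = 1.59e-08). The others differed by 3.73 and 3.34 on the log2 scale. On all 3 probes replicate 1 was the highest hypothalamus array.

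The remaining AMPA genes were dim. Gria3 read 6.05, 5.43, 5.69 and 5.44 in hypothalamus and 5.44, 5.03, 4.70 and 5.08 in liver, so hypothalamus replicates 2 and 4 lay just below liver replicate 1 and the groups overlapped. It was called (log2 difference 0.59, SE 0.19, adjusted p = 0.0157; at least 1.05-fold), but not beyond 2-fold (treat adjusted p = 1), under cyclic loess (adjusted p = 0.176) or without background correction (0.0558). Its other 2 probes were not tested. Gria4 was detected on no array.

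Kainate receptor genes were represented by Grik1, a principal subunit, and Grik5, an auxiliary-type subunit that needs a principal one to form a channel. Grik1 read 8.57, 7.79, 7.94 and 7.50 in hypothalamus and 4.46 to 4.72 in liver, at least 5.15-fold (log2 difference 3.37, SE 0.21, adjusted p = 1.44e-07), while its other 2 probes were detected on 0 and 1 of the 8 arrays. Grik5 read 7.54, 7.14, 7.50 and 7.66 against 4.30, 4.36, 4.56 and 5.46, at least 3.67-fold (log2 difference 2.79, SE 0.25, adjusted p = 2.60e-06). Neither overlapped with liver.

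Grik4, the other auxiliary-type subunit, was not called. Liver replicate 1 at 6.16 lay above all hypothalamus arrays (5.54, 5.60, 5.16 and 5.92), while the other liver arrays read 4.84 to 5.25. The log2 difference of Grik4 was 0.24 (SE 0.28, adjusted p = 0.445), and 0.52 without liver replicate 1 (adjusted p = 0.0288). Under median scaling, with every array kept, Grik4 was called (0.56, limma adjusted p = 0.0296), but stood only 0.076 above the median of all tested probes. Grik2 was detected on 1 array of each tissue and not tested. With no filter it was called higher in liver (log2 difference −0.62, adjusted p = 0.000319), though its deposited intensities overlapped, at 138 to 169 in hypothalamus and 145 to 164 in liver.

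NMDA receptor genes gave no tested member. The probes of Grin2a and Grin2b, the main partners of Grin1 in forebrain receptors, and of Grin2d were detected on 0 of 8 arrays, with detection p-values no lower than 0.441, 0.274 and 0.107 in hypothalamus. Grin3b, a glycine-binding subunit, was detected on 1 hypothalamus array. Grin2c, a subunit of cerebellum and thalamus, was detected on 1 hypothalamus array and on liver replicates 3 and 4, at 5.92 and 5.76, against 5.08 and 4.86 on the other liver arrays. Its hypothalamus values of 4.79 to 4.91 lay near the detection floor of that tissue, and with no filter the difference was not called (−0.56, adjusted p = 0.0755).

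Metabotropic glutamate receptors were read in group III, the G protein-coupled receptors that act mostly on transmitter release. Grm7 read 6.52, 6.55, 6.44 and 6.18 in hypothalamus and 4.41 to 4.55 in liver, at least 1.79-fold (log2 difference 1.95, SE 0.11, adjusted p = 8.23e-08). Grm8 read 6.99, 6.84, 6.64 and 6.90 against 4.66 to 5.24, at least 2.39-fold (log2 difference 1.99, SE 0.15, adjusted p = 6.13e-07). Both were undetected and non-overlapping in liver. Grm4 was detected on 1 liver array, and Grm6, the receptor of retinal ON bipolar cells, and Grm3, a group II receptor also found in astrocytes, on none of the 8 arrays.

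Among themselves, the hypothalamus arrays differed in a direction shared by several receptor genes. Replicate 1 was the highest array for 9 of the 14 genes called higher in hypothalamus (64.3%), and for 29.2% of all 5639 probes called higher in hypothalamus. Its median deviation from the mean of the 4 arrays was 0.21 over these genes and 0.01 over those probes. Of 9 tested neuron markers, replicate 1 was highest in 4 and replicate 3 in 4. The shift was largest in Gria2, Gria1 and Grik1 and absent in Glrb, where replicate 1 was the lowest array. The SD over the 4 hypothalamus arrays was highest for Gabrd (0.93), Gria2 (0.55) and Gria1 (0.49), with a median of 0.28 over the 17 tested genes and 0.17 over all tested probes. Without replicate 1 all 14 genes were still called.

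**Figure D5:**
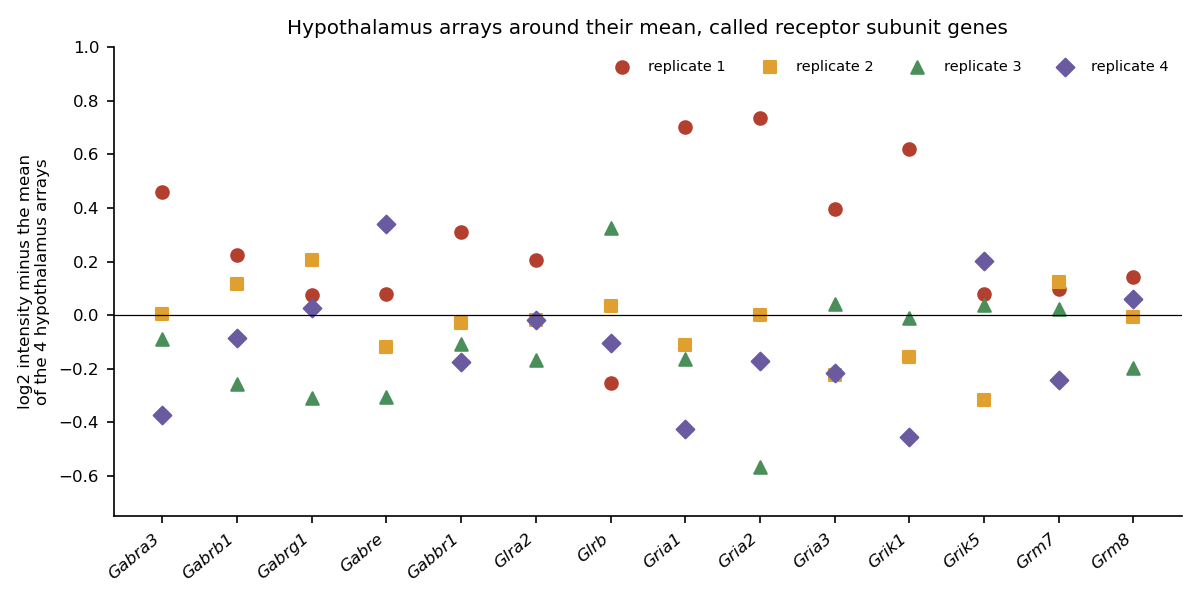
Normalized log2 intensity of each hypothalamus array minus the mean of the 4 (vertical axis) for the 14 receptor subunit genes called higher in hypothalamus, with colours and shapes for replicates. Replicate 1 (red circles) is the highest array for 9 genes and the lowest for Glrb.

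Genes that neighbour each other on a chromosome were read alike in some rows and differently in others. By gene order in GRCm38.p6, Gabrg1, Gabra2, Gabra4 and Gabrb1 form a row on chromosome 5 with at most 1 other protein-coding gene between neighbours. Gabrg1 and Gabrb1, at its ends, were called higher in hypothalamus, and the probes of Gabra2 and Gabra4 between them were detected on no array. On the X chromosome, Gabre and Gabra3 were called and Gabrq beside them was detected on no array. Gria2 and its neighbour Glrb on chromosome 3 were both called, and Gria1 was called on chromosome 11, where 1 gene separates it from the untested Glra1. Gabrr1 and Gabrr2 on chromosome 4 and Gabrg3 and Gabra5 on chromosome 7 were detected on no array.

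Where several probes read 1 gene, they often differed in detection. Of the 10 genes with more than 1 probe, all probes were tested in 3 (Gabrd, Gria1 and Gria2), some in 5 (Gabbr1, Gabrb2, Glrb, Gria3 and Grik1) and none in 2 (Gabrp and Gabrr1). Where each probe lies in its transcript is not used here.

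Proteins that hold these receptors at synapses or carry their signals were taken from 7 lists with 97 genes. Of 78 with a probe 61 were tested, and the calls were 49 for hypothalamus (80.3%, against 43.1% of all tested genes), 3 for liver (4.92%, against 37.3%) and 9 for neither. All 61 were detected on all 4 hypothalamus arrays and 25 of them on all 4 liver arrays. The others entered the test through the hypothalamus, so these counts and those by list below are a description, to be read beside the same shares. Medians below are log2 differences over all genes of a list with a probe, tested or not, where all genes had −0.05.

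At inhibitory synapses, 9 of 14 tested scaffold and trafficking genes had the higher level in hypothalamus and 1 in liver. Over all tested genes the shares were 43.1% and 37.3%. Of the 16 genes with a probe, 10 were detected on all 4 liver arrays (median 1.01). The huntingtin-associated protein gene Hap1, which carries GABA-A receptors to the surface, was 212-fold higher, the synaptic exchange factor Iqsec3 at least 70.1-fold and the adhesion protein neuroligin Nlgn2, detected on 1 liver array, at least 40.5-fold. Gephyrin (Gphn), the scaffold of glycine and GABA-A receptors, was 1.26-fold higher in liver (log2 difference −0.34, adjusted p = 0.00717), a direction that turned, uncalled, under median scaling (0.0081) and in the authors' own normalization (0.14). Relative to the median of all tested probes, which those settings move to 0.49 and 0.39, it stayed lower in hypothalamus. Of 7 tested GABA-B partners and effectors, hypothalamus was higher in 6 and liver in 0, and 2 were detected on all 4 liver arrays (median 1.13). Among them were the G protein genes Gnb5 (at least 65.8-fold) and Gnao1 (23.6-fold) and their regulator Rgs7 (at least 22.4-fold).

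At excitatory synapses, hypothalamus was higher in 12 of 14 tested AMPA receptor partners and liver in 0, with 2 detected on all 4 liver arrays (median 1.78). Over all tested genes the shares were 43.1% for hypothalamus and 37.3% for liver. The differences were led by Olfm1, detected on 3 liver arrays (at least 38.6-fold), the vesicle fusion ATPase Nsf (26.6-fold) and the auxiliary subunit gene Cacng5 (at least 18.1-fold). All 12 tested scaffold genes were higher in hypothalamus, and 3 of them were detected on all 4 liver arrays (median 2.24). Among them were the kinase genes Camk2b (at least 214-fold) and Camk2a, detected on 3 liver arrays (at least 19.4-fold), and the scaffold Dlg2 (at least 17.8-fold). Of 2 kainate partners (median 0.31; 0 detected on all 4 liver arrays), Neto1 was called, at least 1.04-fold higher (log2 difference 1.17, adjusted p = 2.79e-06, and 0.149 beyond 2-fold).

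Effectors of metabotropic glutamate receptors were higher in hypothalamus in 5 of 7 tested genes and in liver in 1, with 6 detected on all 4 liver arrays (median 0.65). Over all tested genes the shares were 43.1% for hypothalamus and 37.3% for liver. Neurochondrin (Ncdn) was 33.5-fold, the regulator Rgs4 19.0-fold and the calcium-binding Caln1 12.2-fold higher in hypothalamus. The phospholipase gene Plcb3 was 1.80-fold higher in liver, a call lost under median scaling (adjusted p = 0.601) and in the authors' own normalization (0.747). Relative to the median of all tested probes Plcb3 stayed lower in hypothalamus in both settings, at −0.56 and −0.41. Of 5 tested genes around the delta glutamate receptors and their relatives, hypothalamus was higher in 4 and liver in 1, with 2 detected on all 4 liver arrays (median 1.40). The cerebellins Cbln1 and Cbln4, secreted synapse organizers, showed differences of at least 142-fold and at least 37.1-fold. Grina was 1.88-fold higher in hypothalamus. Median scaling ended that call (adjusted p = 0.125), and Grina then stood at −0.27 relative to the median of all tested probes. Serine racemase (Srr), which makes the NMDA receptor co-agonist D-serine, was 6.19-fold higher in liver.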

How the data were processed

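Gene expression was measured in 8 single-colour Illumina arrays, 4 per tissue, and grouped by the sample titles. The deposited probe intensity is linear and not normalized between arrays (array medians 138 to 169), and a detection p-value in steps of 1 in 798 is deposited beside it. A further deposited table holds intensity values normalized by the authors by a method not given in the sources used here. Lumi 2.10.0 and R 2.15.0 are named in the submitters' processing notes, with no role. Columns of other samples numbered 0.

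With limma 3.58.1 in R 4.3.3, neqc corrected background with negative controls inferred from the detection p-values (offset 16), quantile-normalized all 8 arrays together and took log2. A tissue difference is therefore relative to the bulk of probes. The 13498 probes detected (detection p-value under 0.05) on 4 or more of the 8 arrays entered lmFit and eBayes with tissue alone in the model, and two-sided p-values were adjusted over all of them by Benjamini-Hochberg. Each gene was read by its tested probe with the highest mean over the 8 arrays. Names came from the platform annotation (23978 probes with 1 symbol, 0 with several, 1719 with none), and all 40 member gene IDs matched RefSeq. The number of arrays limits the precision. The fit was checked on simulated data.

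All members are named. Values by array are given for up to 3 called genes per class, members detected on at least 2 liver arrays, those whose probes disagree and the 3 with the highest SD in hypothalamus; from partner lists, up to 3 called genes in the main direction and 1 in the other. Values of Gabrb2, Gabre, Glra1, Grik2 and Grik4 beyond that rule were chosen after they were seen. Those of the markers Prkcd and Ttr also lie beyond that rule. Members and lists were chosen with earlier results of these data known. Alternatives were the authors' own normalization, cyclic loess, median scaling, offset 50, no background step, other filters, limma's treat, a replicate block, averaged probes and leaving out each array.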

Additional observations from a re-analysis of the deposited data

Results flagged for a closer look

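Of 26 sets of 4 arrays examined (member probes detected on at least 2 arrays of a tissue, and the count of detected member probes per tissue), 2 had an array far from the other 3, measured as the gap to the nearest array over the whole range (chance alone gives such a gap in about 1 set in 20). Hypothalamus replicate 1 stood above the other arrays for Gabrb2 probe ILMN_2696413 (0.876), at 5.74 against 5.02 to 5.11. Hypothalamus replicate 3 stood above the others for Gabrd probe ILMN_2698299 (0.835), at 6.81 against 4.93 to 5.24.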

How the results depend on the processing

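The 14 receptor genes called higher in hypothalamus kept their direction under every alternative run in which they were tested, and the count of calls lay between 12 (treat) and 17 (values normalized by the authors). Leaving out 1 array gave 14 to 15. The calls lost were Gria3 (cyclic loess, no background correction, treat) and Gabre (treat; not tested at a detection p-value under 0.01). In the values normalized by the authors Gabrb2, Gabrd and Grik4 were called as well, at 0.34, 0.55 and 0.37, while all tested probes had a median of 0.39 there and 0.49 under median scaling, against 0.07 in the main setting. Relative to that median the 14 genes differed by 0.085 to 3.73 in the values of the authors and by 0.24 to 5.45 under median scaling. Grik4 turned to −0.018 under cyclic loess, uncalled. Gphn turned to 0.0081 under median scaling and 0.14 in the values of the authors; the cause was not tested.

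Receptor genes higher in liver numbered 0, but 3 with no filter and 2 (Grik2 and Grm4) with detection on at least 1 array, where more dim probes were tested. Genes detected in liver numbered 2, and 1 at a detection p-value under 0.01, 1 when all 4 arrays were required, and 1 to 2 when a liver array was left out: without liver replicate 3 or 4, Grin2c no longer counted. Of all tested genes 4071 were called for hypothalamus and 3527 for liver, 2236 and 1789 beyond 2-fold, and 2266 in liver in the values of the authors. Of called genes 53.6% were higher in hypothalamus, 66.0% under median scaling and 71.4% in the values of the authors.

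With the replicate number as a block the same 14 receptor genes were called. Same-numbered arrays of the tissues correlated at 0.116, 0.0951, 0.0302 and 0.115 in their deviations from the tissue means, not over 0.1 in every pair, so the numbers were not taken to pair the mice, although each hypothalamus array correlated best with the liver array of its own number. The median of the 17 tested members was 0.85 without background correction, 1.33 with offset 50 and 1.41 in the values of the authors, against 2.09. Probes near the detection floor limit what can be said of the dim members.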

Other observations

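The direction of chloride flow through GABA-A and glycine receptors depends on cation-chloride cotransporters, and both below, members of the inhibitory synapse list, were picked out after their values were seen. Slc12a2, the importer NKCC1, was detected on all 8 arrays and differed 4.09-fold in favour of hypothalamus (2.03 on the log2 scale, SE 0.15, limma adjusted p = 7.31e-07), at 11.42, 11.40, 11.84 and 11.47 against 9.34 to 9.85 in liver. It stayed called under every alternative run, at 1.86 to 2.26. Slc12a5, the neuronal exporter KCC2, was detected on 2 of 4 hypothalamus arrays and on no liver array, at 5.01, 4.81, 4.64 and 5.74 in hypothalamus against 4.32 to 4.58 in liver, and was not tested.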
